A study of Mus musculus with 11 samples.

Results

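Pax3 and Pax7 encode paired-box transcription factors that specify muscle progenitors, and the peaks of 3 histone marks around both genes are described here in satellite cells (SCs), the resident stem cells of skeletal muscle. The members were all peaks of 8 deposited lists that overlapped either gene plus 10 kb on each side, in mm9 coordinates chr1:78087000-78204000 for Pax3 and chr4:139283000-139400000 for Pax7. This gave 94 of the 212879 peaks in the lists, 52 at Pax3 and 42 at Pax7. The rule uses gene positions alone, although both genes were picked with earlier results of these data known.

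Quiescent SCs (QSCs) were sorted as VCAM+ / CD31- / CD45- / Sca1- cells from hindlimb muscles of uninjured male C57BL/6 mice, 2 to 3 months old (young) or 22 to 24 months old (old). Activated SCs (ASCs) were QSCs from young mice that had been kept for 3 days on an ECM-coated surface in F10 medium with horse serum, according to the sample descriptions. The study's text speaks of SCs activated in injured muscle instead, and the sample labels were followed here. H3K4me3 and H3K27me3 were profiled by ChIP-seq in all 3 cell states and H3K36me3 in young QSCs and young ASCs, with 1 library per cell state and mark. Sorted cells were collected until enough had been obtained for a reaction, and whether several animals were pooled is not given in the sources used here. The sort itself checks the cell type at the surface only, and peaks of histone marks give no level of RNA or protein for Pax3 or Pax7.

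ChIP-seq finds where DNA carries a given histone modification, and a peak is a stretch with more ChIP reads than its input control. H3K4me3 is found at the start sites of genes that are active or ready to be transcribed. H3K27me3 is placed by the Polycomb repressive complex and is found at silenced genes. H3K36me3 is laid down behind elongating RNA polymerase and lies in the bodies of transcribed genes. A start site with both H3K4me3 and H3K27me3 is called bivalent. In muscle, Pax7 is the factor by which SCs are recognised and is needed to keep them in the adult, whereas Pax3 acts in the embryonic muscle precursors that migrate into the limbs and is retained by a subset of adult SCs. The 2 genes are paralogs, and both are read from the higher to the lower coordinate, so their 5′ ends lie near 78194000 on chromosome 1 and 139390000 on chromosome 4. These ends are known only to about 1 kb, since they were taken from the windows.

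Each peak has a score that the authors' peak caller, MACS, derived from the p-value of its enrichment. The lists start at a score of 50, and the H3K4me3 lists reach 3233.06 with many peaks tied at 3100. The score depends on the depth of the library and of its input, and the number of reads is unknown, so a peak is described by its place within its own list and scores were not compared between cell states. Without a replicate there was no test between cell states, and every difference below is one between single libraries. The whole lists differed in size, from 24453 to 32846 peaks for H3K4me3, from 11658 to 38307 for H3K27me3 and from 20399 to 42880 for H3K36me3. Their median widths ranged from 1150 to 1453 bp, from 838 to 1228 bp and from 1103 to 1220 bp, with the narrowest H3K27me3 peaks in old QSCs. The part of depth and of input quality in any difference was not tested.

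The start region of Pax7 is shown because it lies at the end of the gene where its widest H3K4me3 peak was called in all 3 cell states. The sequence is the 250 bases before the start of transcription that the RefSeq promoter table lists for Pax7, at chr4:139832969-139833218 on the minus strand of GRCm38.p6, a later build than that of the peaks. It is printed 5′ to 3′, with CpG dinucleotides in capitals. Of the 2 genes, 1 matched an entry of the table, and Pax3 is named only.

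Pax7: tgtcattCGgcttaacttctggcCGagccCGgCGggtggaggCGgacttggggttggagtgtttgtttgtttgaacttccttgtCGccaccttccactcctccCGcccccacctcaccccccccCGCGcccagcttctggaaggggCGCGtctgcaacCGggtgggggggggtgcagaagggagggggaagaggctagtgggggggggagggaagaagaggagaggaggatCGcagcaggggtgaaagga

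The stretch held 13 CpG dinucleotides, against a median of 6 over the 32851 promoters of the table, and 31.5% of them held at least as many. Its G and C content was 65.2%, against a median of 52.4%, and was reached by 17.0% of the promoters. On both strands, 1 match to the GC box GGGCGG was found, which 32.7% of all promoters held. No match was found to TATAAA, held by 12.4% of all promoters, to CCAAT, held by 33.8%, to the E box CANNTG, held by 66.2%, or to TGGGAA, a core of the sites of the Notch effector RBPJ, held by 21.6%. A match is a run of letters and does not show that a factor was bound.

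The amount of each mark differed between the genes. Pax3 had H3K4me3 and H3K27me3 in young QSCs, young ASCs and old QSCs, and almost no H3K36me3. Pax7 had a long block of H3K4me3 at its 5′ end in all 3 cell states and no H3K27me3 peak in young cells. H3K36me3 lay in its body in both young cell states, but in young ASCs only at 49.1 kb or more from the 5′ end. In old QSCs 2 weak H3K27me3 peaks were called within Pax7.

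**Figure D1:**
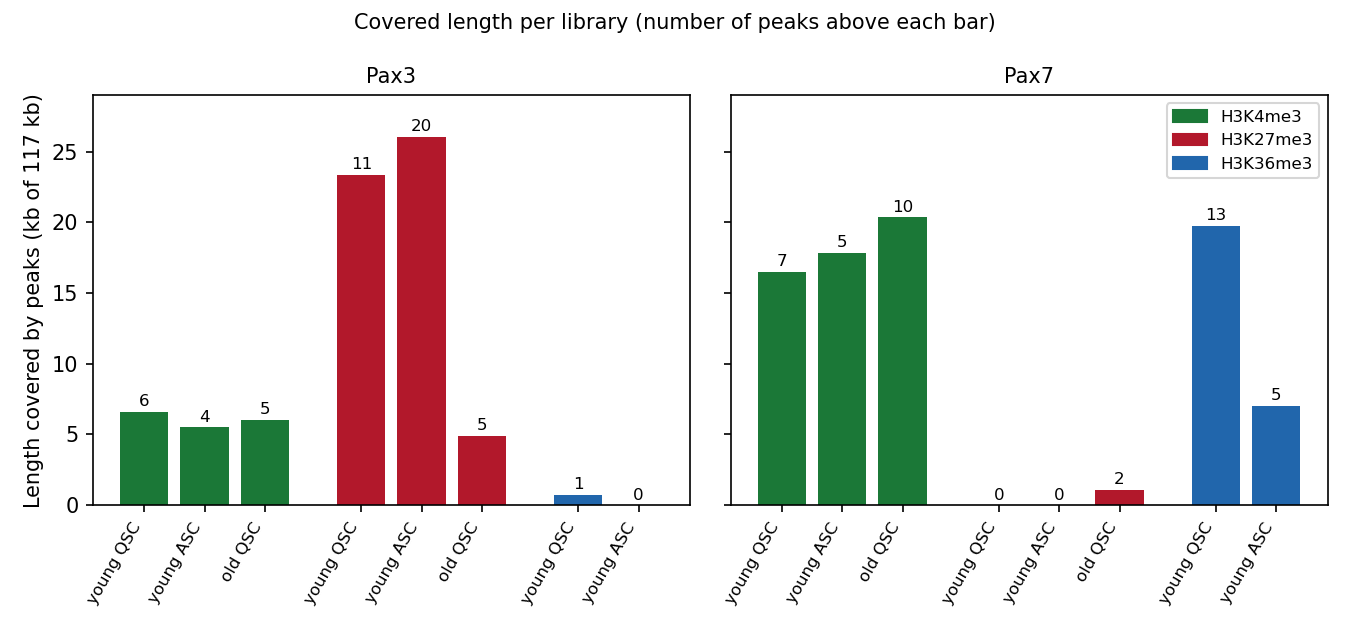
Length of the 117 kb window covered by peaks (vertical axis, kb) at Pax3 and Pax7 in each of the 8 libraries, coloured by mark, with the number of peaks above each bar; each bar is 1 library, so there are no error bars. H3K27me3 covers 23.3 and 26.1 kb at Pax3 in young cells and 0 kb at Pax7.

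At Pax3, H3K4me3 was called at 6 peaks in young QSCs, 4 in young ASCs and 5 in old QSCs. They covered 6603, 5496 and 6058 bp, which is 5.64%, 4.70% and 5.18% of the window. The 3 libraries were thus close in length, and all of their H3K4me3 lay within 16 kb of the 5′ end. The site described first below covered the 5′ end itself, and the other peaks lay upstream or further inside the gene. Among all 117 kb stretches of the genome with an H3K4me3 peak in either list, the covered length was lower in young ASCs than in young QSCs in 34.2% and lower in old QSCs in 37.7%, as here. Counting only peaks that scored 100 or more, young QSCs and young ASCs had 5511 and 5496 bp.

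Of the H3K4me3 peaks at Pax3, 3 of 6 in young QSCs, 3 of 4 in young ASCs and 3 of 5 in old QSCs overlapped an H3K4me3 peak of both other cell states. Over the whole lists 72.8%, 54.4% and 72.9% did. The first of these sites covered the 5′ end and was 1765 bp wide in young QSCs (chr1:78192547-78194311), 1536 bp in young ASCs and 1710 bp in old QSCs. Its scores were 1193.93, 2454.17 and 1198.37, and 39.3%, 33.6% and 43.7% of all H3K4me3 peaks of the respective list scored at least as high. A width at least as large was found for 29.8%, 37.0% and 36.7%, so that the site at the start of Pax3 lay above the median of each list in width and in score, but not among its widest or highest peaks.

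The second site lay 7.1 to 8.5 kb inside the gene in young QSCs (chr1:78185521-78186907). It was 1387 bp wide in young QSCs, 1588 bp in young ASCs and 1326 bp in old QSCs, and 51.2%, 38.5% and 46.8% of the peaks of each list scored at least as high. The third site lay upstream, 5.6 to 7.0 kb before the 5′ end (chr1:78199557-78201035 in young QSCs), with widths of 1479, 1561 and 1270 bp. It stood lower in the old QSC list, where 64.6% of peaks scored at least as high, than in the lists of young QSCs (53.1%) and young ASCs (39.2%).

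The other H3K4me3 peaks of Pax3 were narrow and weak. In young QSCs there were 3, between 527 and 880 bp wide with scores of 51.55 to 123.12. A peak at 1.7 to 2.6 kb inside the gene was called in young and old QSCs and not in young ASCs, and one 3.2 to 3.8 kb inside in young QSCs and young ASCs and not in old QSCs. In old QSCs a peak of 809 bp lay 3.9 to 4.7 kb upstream, where neither young library had one.

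**Figure D2:**
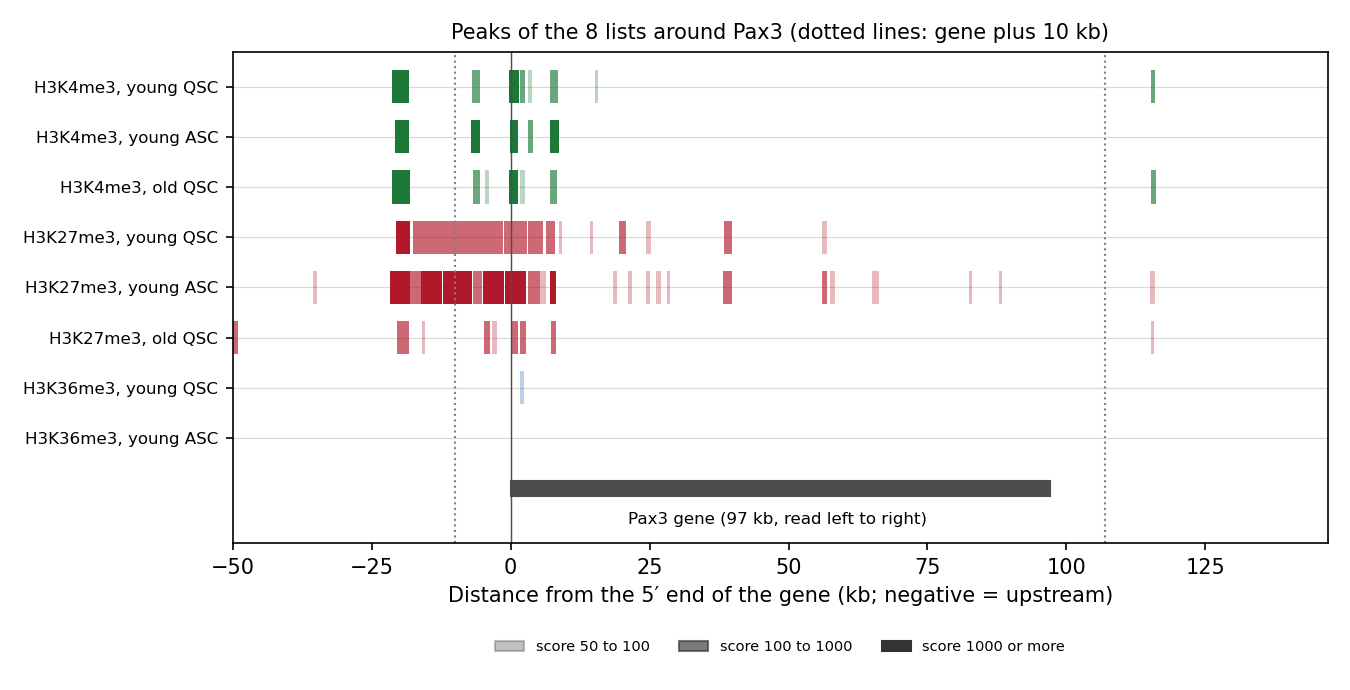
Peaks at Pax3 in the 8 lists (rows), by distance from the 5′ end of the gene in kb, with negative values upstream and darker bars for higher MACS scores within 3 ranges; the bar at the bottom is the gene and dotted lines mark the window of gene plus 10 kb. H3K27me3 runs through the 5′ end and the upstream flank in young QSCs and young ASCs and is broken into 5 short peaks within the window in old QSCs.

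H3K27me3 at Pax3 was called at 11 peaks covering 23341 bp in young QSCs, 20 peaks covering 26050 bp in young ASCs and 5 peaks covering 4925 bp in old QSCs. These are 19.9%, 22.3% and 4.21% of the window. The young libraries were alike in total length, and the old library was the low one, with a log2 ratio of old over young QSCs of -2.24 in covered length. The whole lists covered 21.4 Mb in young QSCs, 48.9 Mb in young ASCs and 16.9 Mb in old QSCs. The old list thus covered less than that of young QSCs although it held more peaks, 17635 against 11658. The log2 ratio of young ASCs over young QSCs was 0.16, and it changed sign to -0.16 when only peaks with a score of at least 100 were used and to -0.64 with equal numbers of top-scoring peaks, so no direction is given for it. Over all stretches with H3K27me3 in either list, the length was higher in young ASCs in 90.8%.

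These lengths were read against the genome cut into 22565 stretches of the same 117 kb. At least as much H3K27me3 was found in 0.784% of the stretches in young QSCs, in 1.68% in young ASCs and in 2.11% in old QSCs, while 17.3%, 41.5% and 44.4% of stretches held any peak of that mark in the respective list. The Pax3 window was thus among the stretches with the most H3K27me3 in each list, in old QSCs as well. Among all stretches with a peak in either list, the covered length was lower in old than in young QSCs in 27.6%. Among the 177 stretches that had at least as much as Pax3 in young QSCs, it was lower in old QSCs in 100%. Picking them for a high value in young QSCs by itself favours a lower one in old QSCs, so nothing is read from that share. In 48.6% of them the ratio of old to young was no higher than at Pax3. By this ratio, the shorter H3K27me3 of Pax3 in old QSCs did not set it apart from other stretches with long H3K27me3.

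The difference between young and old QSCs was largest in the upstream flank. In young QSCs 99.1% of the 10 kb before the 5′ end was covered by H3K27me3, in young ASCs 96.0% and in old QSCs 19.2%. In the first 20 kb of the gene the shares were 46.5%, 37.3% and 15.0%. Over the remaining 77 kb H3K27me3 consisted of scattered peaks, 4 covering 4.13 kb in young QSCs and 10 covering 8.98 kb in young ASCs, with none in old QSCs. A score of at least 100 was found for 7 of 11 peaks in young QSCs, 9 of 20 in young ASCs and 4 of 5 in old QSCs, against 51.3%, 48.5% and 43.6% of the whole lists.

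The H3K27me3 of old QSCs lay where the young cells had it. All 5 old peaks overlapped a young QSC peak, against 26.1% of that list, and 98.7% of their length was shared with young QSCs. In the other direction 4 of 11 young QSC peaks overlapped an old one, against 31.8%. Between the young cell states, 8 of 11 QSC peaks overlapped an ASC peak, against 74.3%, and 12 of 20 ASC peaks overlapped a QSC peak, against 22.6%. The whole-list shares count peaks wherever they lie, so they are an unlike baseline for a window with this much H3K27me3. All old peaks lay in the upstream flank and the first 20 kb, of which young QSC peaks covered 99.1% and 46.5%.

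The longest member was a single H3K27me3 peak of young QSCs at chr1:78195274-78211527, which began 1.3 kb upstream of the 5′ end of Pax3 and reached 17.5 kb upstream. It was 16254 bp wide, the 23rd widest of the 11658 peaks of its list, and 0.197% of them were at least as wide. Peaks of young ASCs covered 98.1% of it in 5 pieces, and peaks of old QSCs covered 15.9% in 3 pieces. For the 23 peaks of the list that were at least as wide, the share covered in young ASCs was between 74.3% and 100%, with a median of 98.3%. In old QSCs it was between 3.22% and 86.9%, with a median of 44.8%, and 3 of the 23, this peak included, were at 15.9% or less.

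The H3K27me3 peak over the 5′ end of Pax3 was 2520 bp wide in young QSCs (chr1:78192660-78195179), with a score of 518.61 that 12.7% of its list reached. In young ASCs it was 3753 bp wide (chr1:78191338-78195090), with a score of 1863.04 that 4.70% of its list reached. In old QSCs the nearest peak, chr1:78192699-78193752, was 1054 bp wide and ended 0.2 kb inside the gene, with a score of 175.83 that 19.4% of its list reached. All 3 lists thus had an H3K27me3 peak within 0.2 kb of the start of Pax3, less than the 1 kb to which that start is known.

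Both marks coincided at Pax3 in all 3 cell states. In young QSCs 5 of 6 H3K4me3 peaks overlapped an H3K27me3 peak, against 14.0% of all H3K4me3 peaks of that list. In young ASCs 4 of 4 did, against 16.9%, and in old QSCs 4 of 5, against 28.6%. The length shared by both marks was 5585, 4742 and 3691 bp, or 84.6%, 86.3% and 60.9% of the H3K4me3 of the window. Counted from H3K27me3, 5 of 11 peaks overlapped H3K4me3 in young QSCs, 5 of 20 in young ASCs and 4 of 5 in old QSCs, against 27.7%, 13.9% and 41.3%. Neighbouring peaks in the same stretch of H3K27me3 are not separate cases. The whole-list shares count peaks wherever they lie, so here too they are an unlike baseline. The sites at the 5′ end and about 8 kb inside the gene carried both marks in every cell state. The upstream site carried both in young QSCs and young ASCs, and in old QSCs it was an H3K4me3 peak without H3K27me3. The libraries were made from separate reactions, so whether single cells or molecules carried both marks is not known.

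H3K36me3 was close to absent at Pax3. In young QSCs 1 peak of 721 bp was called 1.7 to 2.4 kb inside the gene, with a score of 54.18, near the lowest that is called, and 89.6% of that list scored at least as high. In young ASCs no H3K36me3 peak was found in the window. For comparison, 31.5% of all 117 kb stretches held an H3K36me3 peak in young QSCs and 27.8% in young ASCs. The peak of young QSCs lay wholly within H3K27me3, and 685 bp of it within H3K4me3.

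At Pax7, H3K4me3 was called at 7 peaks covering 16511 bp in young QSCs, 5 covering 17823 bp in young ASCs and 10 covering 20361 bp in old QSCs. These are 14.1%, 15.2% and 17.4% of the window. Of all 117 kb stretches, 0.612%, 1.19% and 0.261% had at least as much H3K4me3 in the respective list, against 5.92%, 13.0% and 7.06% for Pax3. Any H3K4me3 peak was held by 47.1%, 47.6% and 50.9% of the stretches. The log2 ratio was 0.11 for young ASCs over young QSCs and 0.30 for old over young QSCs. With 50 kb on each side of the gene in place of 10 kb the first of these was -0.01. Across all stretches with an H3K4me3 peak in either list, the length was higher in young ASCs in 65.7% and higher in old QSCs in 62.3%, so these directions were those of most stretches.

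**Figure D3:**
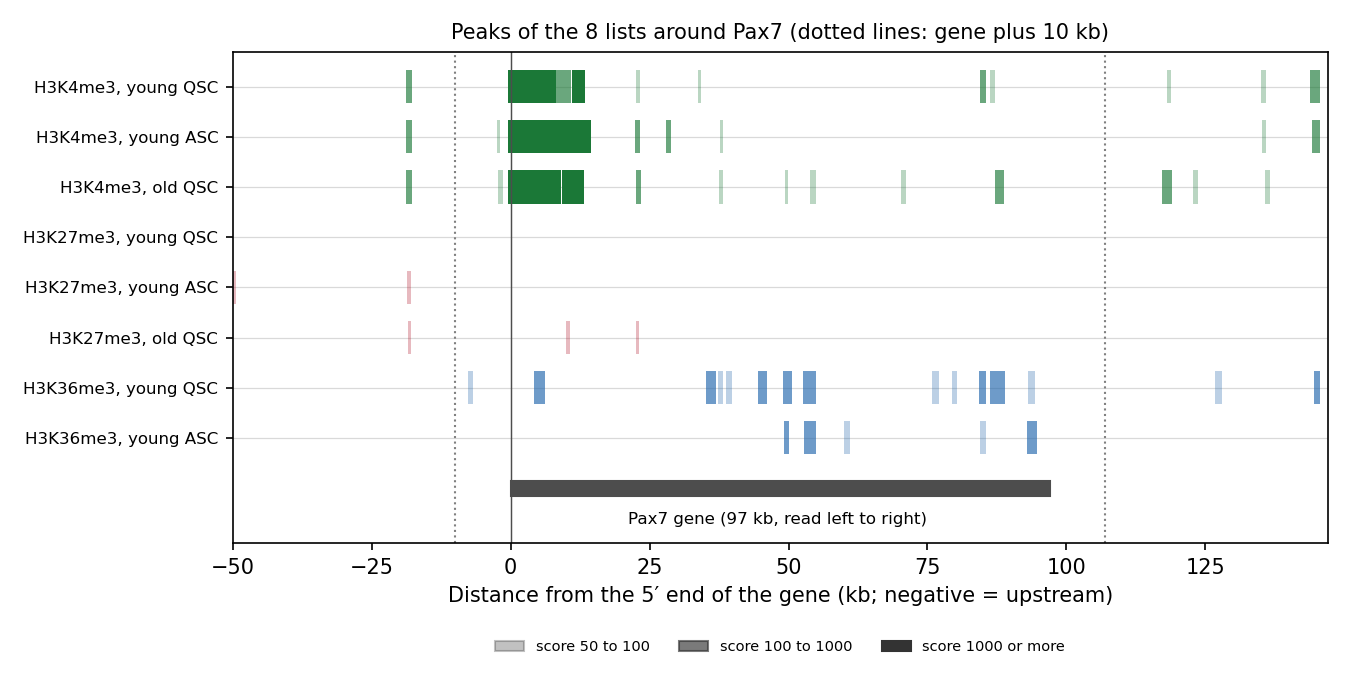
Peaks at Pax7 in the 8 lists (rows), by distance from the 5′ end of the gene in kb, with negative values upstream and darker bars for higher MACS scores within 3 ranges; the bar at the bottom is the gene and dotted lines mark the window of gene plus 10 kb. H3K4me3 fills the first 13 to 15 kb of the gene in all 3 cell states. H3K36me3 lies at 13 peaks of the window in young QSCs, 1 of them upstream of the gene. In young ASCs it lies at 5 peaks, all in the body.

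The H3K4me3 of Pax7 was a block that began 0.5 kb upstream of the 5′ end and ran far into the gene. In young QSCs the peak over the 5′ end was 8535 bp wide (chr4:139381933-139390467), the 10th widest of 24701. In young ASCs it was 14991 bp wide (chr4:139375474-139390464), the 4th widest of 32846. In old QSCs it was 9654 bp wide (chr4:139380871-139390524), the 5th widest of 24453. All 3 had a score of 3100, a value shared by 13.0%, 31.2% and 22.1% of the peaks of the respective lists, and 1.27%, 0.39% and 1.19% scored higher.

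In both QSC lists the same stretch was divided. Young QSCs had 2 further peaks directly downstream, 2612 bp wide with a score of 736.85 and 2178 bp wide with a score of 1783.65. Old QSCs had 2 at nearly the same places, 1728 bp wide with a score of 1133.79 and 2214 bp wide with a score of 1952.9. When peaks less than 1 kb apart were joined, the block was 13.72 kb long in young QSCs, 14.99 kb in young ASCs and 15.57 kb in old QSCs. It then ended 13.3, 14.5 and 13.2 kb inside the gene, and in old QSCs it also took in a peak 1.4 to 2.3 kb upstream. Among the joined peaks it was the 5th, 26th and 3rd widest. Whether the block was called as 1 peak or several thus differed between the lists more than the stretch it spanned. At the 5′ end of Pax3 the joined H3K4me3 was 4.08, 1.54 and 2.95 kb long.

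**Figure D4:**
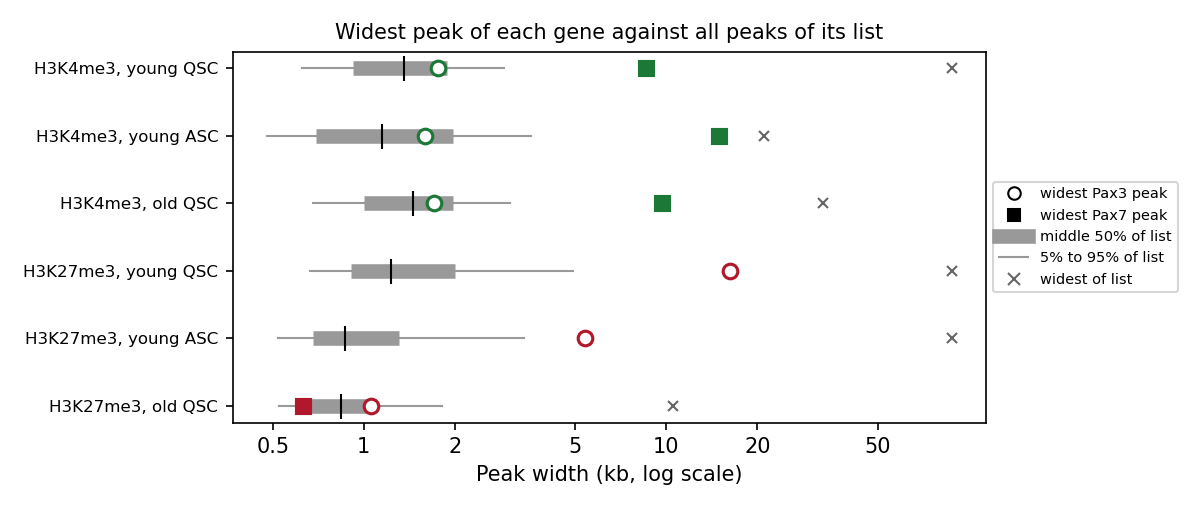
Width of the widest Pax3 peak (open circles) and the widest Pax7 peak (filled squares) in the H3K4me3 and H3K27me3 lists, on a log axis in kb, over the middle 50% (thick line), the 5% to 95% range (thin line), the median (tick) and the widest peak (cross) of all peaks of the list. Pax7 stands out for H3K4me3 (8.54, 14.99 and 9.65 kb) and Pax3 for H3K27me3 in young QSCs (16.25 kb) and young ASCs (5.37 kb); Pax7 has no H3K27me3 peak in young cells.

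Beyond the first 20 kb of Pax7, H3K4me3 was made up of small peaks, 4 covering 3.19 kb in young QSCs, 3 covering 2.35 kb in young ASCs and 6 covering 5.82 kb in old QSCs. Their scores were between 63.56 and 123.24 in young QSCs, 66.61 and 181.79 in young ASCs, and 52.2 and 131.49 in old QSCs. A peak 22 to 23 kb inside the gene was called in all 3 lists, at chr4:139366718-139367530 in young QSCs. Of the 6 in old QSCs, 4 lay on an H3K36me3 peak of young QSCs, against 10.8% of all H3K4me3 peaks of old QSCs. In young QSCs 2 of 4 such peaks lay on H3K36me3 of the same cells, against 12.9%, and in young ASCs 1 of 3 lay on H3K36me3 of young QSCs, against 7.08%, and none on H3K36me3 of young ASCs, against 7.70%. These whole-list shares count H3K4me3 peaks wherever they lie, so they are an unlike baseline for peaks in this part of the gene. H3K36me3 covered 21.8% of that part in young QSCs and 9.14% in young ASCs. No H3K36me3 list of old QSCs was used here. Over the whole window, 4 of 7 H3K4me3 peaks in young QSCs, 2 of 5 in young ASCs and 4 of 10 in old QSCs overlapped a peak of both other cell states. Over the whole lists 72.8%, 54.4% and 72.9% did. The shares at Pax7 were lower, but they rest on few peaks. They also depend on whether the block was called as 1 peak or several, so nothing particular to Pax7 is read from them.

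H3K36me3, the mark of transcribed gene bodies, was called in the Pax7 window at 13 peaks covering 19758 bp in young QSCs and at 5 peaks covering 7036 bp in young ASCs, or 16.9% and 6.01% of the window. The log2 ratio of young ASCs over young QSCs was -1.49. The whole lists went the other way, with 29.1 Mb covered in young QSCs and 70.0 Mb in young ASCs. Over all stretches with an H3K36me3 peak in either list, the length was lower in young ASCs in 38.0%. Among the 216 stretches with at least as much H3K36me3 as Pax7 in young QSCs it was lower in young ASCs in 30.1%. In 8 of them, 3.70%, the ratio of young ASCs to young QSCs was no higher than at Pax7.

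Apart from 1 peak of young QSCs 6.7 to 7.7 kb upstream of the 5′ end, these peaks lay in the body. Those of young ASCs all lay between 49.1 and 94.7 kb inside the gene. Beyond the first 20 kb, 11 peaks of young QSCs covered 21.8% of the remaining gene and 5 peaks of young ASCs covered 9.14%. Restricted to this part, a choice made with the values known, the log2 ratio was -1.25. Of the 13 peaks in young QSCs, 4 overlapped a peak of young ASCs, against 59.2% of all H3K36me3 peaks of young QSCs, and 4 of the 5 in young ASCs overlapped a peak of young QSCs, against 26.3%. These 4 lay at 49.0 to 50.7, 52.6 to 54.9, 84.3 to 85.5 and 93.1 to 94.4 kb from the 5′ end.

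Between 35 and 47 kb from the 5′ end, young QSCs had 4 H3K36me3 peaks, with scores of 53.35 to 123.67, and young ASCs had none. The highest-scoring H3K36me3 peak of Pax7 in young QSCs, chr4:139383792-139385786, lay 4.2 to 6.2 kb inside the gene within the H3K4me3 block. It was 1995 bp wide with a score of 223.66, and had no counterpart in young ASCs. In young ASCs the highest-scoring peak was chr4:139335130-139337204, with a score of 245.1, and in young QSCs the peak at that place scored 202.61. In the lists these scores were reached by 18.8% and 14.4% of peaks. The peak of young ASCs without a counterpart in young QSCs lay at 59.9 to 61.1 kb and scored 95.32.

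H3K27me3 was not called in the Pax7 window in young QSCs or young ASCs. In old QSCs 2 peaks were called, chr4:139366922-139367401 and chr4:139379349-139379975, which lay 22.6 to 23.1 and 10.0 to 10.7 kb inside the gene. They were 480 and 627 bp wide with scores of 75.45 and 81.33, and covered 1107 bp, or 0.946% of the window. Both lay wholly within H3K4me3 peaks of old QSCs, and neither reached the 5′ end. Of all H3K27me3 peaks of old QSCs, 41.3% overlapped an H3K4me3 peak of the same list. Of the stretches with H3K4me3 and no H3K27me3 in young QSCs, 42.6% had an H3K27me3 peak in old QSCs and 45.5% in young ASCs, so a peak in old QSCs in such a stretch was common. Neither peak remained among the peaks with a score of at least 100, to which 43.6% of that list belonged.

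Set side by side, the 5′ ends of the paralogs differed in the same way in each cell state for H3K4me3 and H3K27me3. In the first 20 kb of the gene, H3K4me3 covered 64.3% at Pax7 and 24.1% at Pax3 in young QSCs, 72.6% and 18.8% in young ASCs, and 65.4% and 18.2% in old QSCs. H3K27me3 covered 0%, 0% and 3.13% of that part at Pax7. H3K36me3 covered 9.97% of it at Pax7 and 3.6% at Pax3 in young QSCs, and 0% at both genes in young ASCs. Over the whole window H3K36me3 covered 16.9% at Pax7 and 0.616% at Pax3 in young QSCs, and 6.01% and 0% in young ASCs. These are values of single libraries, and no test between the genes was possible.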

How the data were processed

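ChIP-seq libraries of sorted QSCs and ASCs were prepared with 5 μg of antibody per reaction and 15 cycles of PCR. According to the submitters' processing notes, reads were placed with Bowtie on the mouse assembly mm9; versions, read numbers and the handling of duplicates are not given in the sources used here. The deposited lists hold the start, end and MACS score of each peak, called by the authors per library against an input library, without pooling being stated. The score is taken to follow MACS's scale, a multiple of the negative log10 of the peak's p-value on which 50 stands for 1e-05. The 3 input libraries had no list and were not analysed here.

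The windows were those given above; starts are printed counted from 1. Covered length was clipped to the window, ranks used whole peaks, and peaks overlapped when they shared at least 1 bp. Stretches of 117 kb were laid end to end from the start of each chromosome to the last peak of any list. Python 3.11.15, numpy 2.4.6, pandas 2.3.3 and matplotlib 3.10.9 were used, and overlap counts were tested on simulated data and checked against bedtools 2.31.1. Named genes were limited to Pax3 and Pax7, since no annotation in mm9 was used here. The gene table of GRCm38.p6 served for names of neighbours only. The genes, their windows and the parts of the gene were chosen with earlier results of these data known. Alternatives were a score of at least 100, equal numbers of top-scoring peaks per mark, other windows, joined peaks and a stricter overlap.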

Additional observations from a re-analysis of the deposited data

How the results depend on the processing

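Of 87 recomputed values of 16 results, 74 kept their direction and stayed within 1.5 times of the value given. No paired analysis was possible because each cell state and mark had 1 library, and no replicate could be left out. Using peaks that scored 100 or more, the log2 ratio of H3K27me3 length at Pax3 in young ASCs over young QSCs was -0.16, the H3K36me3 difference at Pax3 was 0 bp, the length shared by both marks in old QSCs was 1939 bp at Pax3 and 0 bp at Pax7, and the H3K27me3 difference at Pax7 in old QSCs was 0 bp. With equal numbers of top-scoring peaks per mark, the first of these was -0.64. With 50 kb on each side, the shared length at Pax3 was 7361 bp in young ASCs and 6387 bp in old QSCs. At Pax7 it was 739 and 1771 bp, the H3K27me3 difference from young QSCs was 1276 bp in young ASCs and 1771 bp in old QSCs, and the log2 ratio of H3K4me3 in young ASCs was -0.009. The higher score limit, the wider window and the equal numbers of peaks remove or add peaks by construction. With equal numbers, the young QSC H3K27me3 list kept all of its 11658 peaks, and the young ASC list was cut to as many from 38307. The unknown depth limits every count of weak peaks.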

Other observations

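Just outside the Pax3 window, 18.3 to 21.4 kb upstream of the 5′ end in young QSCs, lay an H3K4me3 peak with a score of 3100 in all 3 cell states. It was 3107 bp wide in young QSCs (chr1:78212292-78215398), 2619 bp in young ASCs and 3284 bp in old QSCs, wider in each list than any H3K4me3 peak within the window. H3K27me3 was called at the same place in all 3 lists, 2488, 3500 and 2144 bp wide with scores of 1043.86, 3100 and 616.23. In each list this was the highest-scoring H3K27me3 peak within 50 kb of Pax3, and 6.00%, 3.04% and 2.87% of the lists scored at least as high. When H3K27me3 peaks less than 1 kb apart were joined, 1 stretch ran from inside Pax3 through this site, 29.97 kb long in young QSCs and 29.86 kb in young ASCs, the 37th widest of 8154 and the 41st widest of 26814 joined peaks. By order of start coordinate, the next genes on that side in the RefSeq table are Gm33152, a lncRNA gene, and Gm2102, a protein-coding gene. Their positions in mm9 were not used here, and the order by start does not show whether they lie outside Pax3.

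About 18 kb upstream of Pax7, an H3K4me3 peak was called in young QSCs (chr4:139407702-139408851), young ASCs and old QSCs, 1150, 970 and 1255 bp wide. An H3K27me3 peak lay on it in young ASCs (739 bp, score 73.74) and in old QSCs (664 bp, score 65.42) and none in young QSCs. By order of start coordinate, the next gene on that side in the RefSeq table is Gm46873, a lncRNA gene. Here too this order does not show whether it lies outside Pax7.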
